A study of Homo sapiens with 5 samples.

Results

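The regions described here are the 2774 places in the genome of Flp-In HEK293 T-REx cells where an ASXL1 peak and a FOXK1 peak overlapped and no O-GlcNAc peak lay in the same region. Peaks of the 3 lists on chromosomes 1 to 22 and X were pooled and merged wherever they overlapped by at least 1 bp, which gave 159864 regions. Regions were then selected by which lists had a peak in them, so the presence of ASXL1 and FOXK1 and the absence of O-GlcNAc were set by the choice and are not results. The 2774 regions made up 1.74% of all merged regions and 30.8% of the 9005 regions with both an ASXL1 and a FOXK1 peak. The other 6231 of those 9005 regions also held an O-GlcNAc peak and are the closest group for comparison. The number depends on the score limits: it was 4627 (51.4% of regions with both proteins) when O-GlcNAc peaks had to score at least 100, 596 (15.8%) when ASXL1 and FOXK1 peaks had to, and 439 (19.8%) when each list was reduced to its 10000 best-scoring peaks.

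ASXL1 is a subunit of the Polycomb repressive deubiquitinase complex, in which the enzyme BAP1 removes ubiquitin from histone H2A. FOXK1 is a forkhead transcription factor that binds DNA directly and is known to recruit BAP1 complexes to chromatin. O-GlcNAc is a single sugar that the enzyme OGT attaches to serine and threonine residues of nuclear proteins, and OGT is itself found in BAP1 complexes together with its partner HCFC1. An antibody against O-GlcNAc therefore recovers DNA near any sugar-bearing protein, whatever its identity.

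Chromatin immunoprecipitation with sequencing (ChIP-seq) was done on the Flp-In HEK293 T-REx line, which derives from human embryonic kidney and is built for inserting tetracycline-inducible transgenes at a fixed site. The labels name no transgene and no treatment for any library. The ASXL1 library (Santa Cruz sc85283) and the O-GlcNAc library (Novus HGAC85, labelled anti-GlcNAc) were made from chromatin preparation 63, whose input served as their control. The FOXK1 library (Abcam ab18196) came from preparation 62 with its own input, so in any comparison of FOXK1 with the other targets the antibody cannot be told apart from the preparation. Each antibody had 1 library, so there is no replicate error and no test between conditions was possible. The intervals below are 95% intervals that cover counting error only, and neighbouring regions are not independent replicates.

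Each peak carries the score its authors' peak caller gave it, with 50 as the lowest score in each list. Scores rank peaks within a list and are not on a common scale between lists. A region without O-GlcNAc is one without a listed O-GlcNAc peak scoring 50 or more, and the sugar may still be there below that limit. The depth of the libraries is unknown.

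The 2774 regions were simple in make-up and modest in score. In 2609 of them (94.1%, Wilson interval 93.1 to 94.9) a single ASXL1 peak met a single FOXK1 peak. ASXL1 peaks numbered 2 or more in 145 regions and FOXK1 peaks 2 or more in 24. Together they took up 2923 of the 94093 ASXL1 peaks and 2800 of the 21481 FOXK1 peaks on these chromosomes. The regions were thus 3.003% of all regions with ASXL1 and 13.03% of all regions with FOXK1.

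The highest ASXL1 score per region had a median of 93.1 (interval 89.5 to 95.7), with the middle of the distribution from 66.0 to 151 (quartiles). Regions with ASXL1 alone had a median ASXL1 score of 67.6, and regions of all 3 lists had one of 336 (interval 320 to 355). The FOXK1 score had a median of 85.0 (interval 82.8 to 87.4) and quartiles of 62.5 and 132. FOXK1 alone had a median of 64.7, and regions of all 3 lists had one of 118 (interval 116 to 121). For both proteins the regions without O-GlcNAc therefore lay between the regions of a single list and those of all 3, and for ASXL1 they lay much nearer to the single list. Their ASXL1 peaks were narrower than those of regions of all 3 lists, with median widths of 344 and 611 bp, and their FOXK1 peaks had median widths of 470 and 689 bp in the same order.

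**Figure D1:**
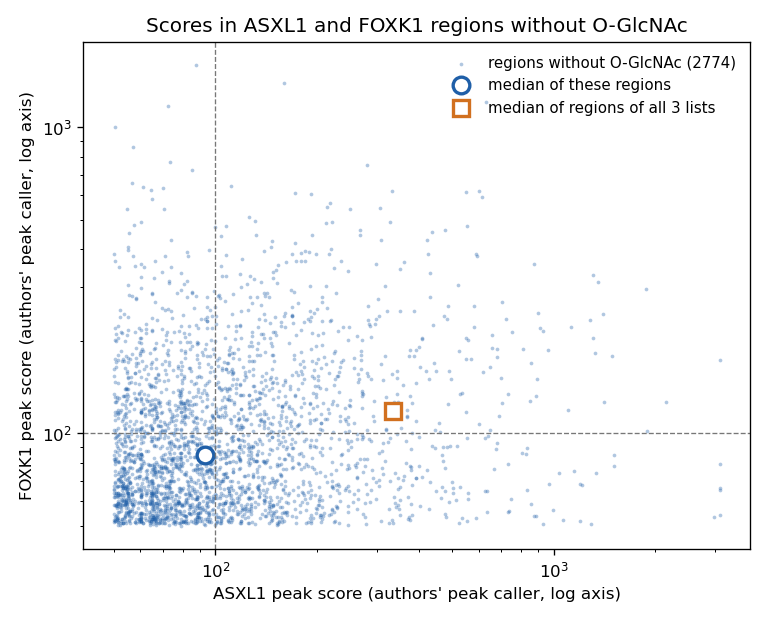
Each point is 1 of the 2774 ASXL1 and FOXK1 regions without O-GlcNAc, placed by its highest ASXL1 score (x axis, log) and its highest FOXK1 score (y axis, log), both from the authors' peak caller. Dashed lines mark a score of 100. The open circle is the median of these regions (93.1 and 85.0) and the open square the median of regions of all 3 lists (336 and 118), which lies farther to the right than upwards.

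A score of 100 divides the regions into 4 kinds. Both scores were below 100 in 1000 regions (36.05%, interval 34.3 to 37.9), against 8.81% of the regions of all 3 lists. Both were at least 100 in 595 regions (21.4%, interval 19.96 to 23.02), against 50.9%. ASXL1 alone reached 100 in 663 regions (23.9%) and FOXK1 alone in 516 (18.6%, interval 17.2 to 20.1), where the regions of all 3 lists had 32.2% and 8.10%. The kind with a higher FOXK1 and a lower ASXL1 score was therefore the one, beside the low-scoring kind, that took a larger share among regions without O-GlcNAc. Counted the other way, O-GlcNAc was missing from 50.5% (47.5 to 53.6) of the 1021 regions where FOXK1 alone reached 100 and from 24.8% (23.2 to 26.5) of the 2671 where ASXL1 alone did. It was missing from 15.8% (14.7 to 17.01) of the 3764 regions with both at 100 or more and from 64.6% (62.1 to 66.9) of the 1549 with neither. A score of 100 does not mean the same in the 2 lists. ASXL1 also shared its chromatin preparation with O-GlcNAc and FOXK1 did not, so target and preparation cannot be told apart here. Across the 2774 regions the 2 scores were only weakly related, with a Spearman rho of 0.167 and a Pearson r of 0.0833. The regions of all 3 lists had a rho of 0.147.

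The strongest co-occupied places in this group were then identified by the sum of their ASXL1 and FOXK1 score ranks. First came chr5:78531153-78532611 (hg19), where an ASXL1 peak of score 633.34 met a FOXK1 peak of score 1212.64, and the nearest O-GlcNAc peak lay 4739 bp away with a score of 53.2. Next was chr1:198125802-198127079, with 602.36 for ASXL1 and 618.97 for FOXK1, where an O-GlcNAc peak of score 52.6 lay only 285 bp away. At chr6:1850862-1851617 the scores were 614.75 and 592.59, and the nearest O-GlcNAc peak was 565 bp away. These 3 places had nearly equal ASXL1 scores, and the first stood apart in its FOXK1 score and its distance to O-GlcNAc.

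At chr9:13979277-13980106 the ASXL1 score was 551.05 and the FOXK1 score 612.92, with the peak centres 11.5 bp apart. The ASXL1 peak there was 473 bp wide and lay within an 830 bp FOXK1 peak. A group of 4 places in the list paired a higher ASXL1 score with a lower FOXK1 score than these. They were chr6:26532830-26533843 (1306.95 and 328.48), chr13:72441008-72441922 (1353.95 and 311.84), chr5:180528532-180529734 (1872.1 and 296.92) and chr14:37304221-37304910 (878.31 and 357.75).

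The other 2 of the 10 were chr7:114169962-114170688 (555.96 and 475.96) and chr1:25593928-25594531 (591.38 and 387.24). The last of these lay farthest from O-GlcNAc among the 10, at 19414 bp from a peak of score 314. All 10 regions held 1 ASXL1 peak and 1 FOXK1 peak, and the centres of these were between 11.5 and 137.5 bp apart.

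The highest FOXK1 score of the group was at chr10:99078463-99079482, with 1594.68 for FOXK1 and 87.8 for ASXL1, and the next at chr22:39541329-39542240, with 1396.69 and 160. The place on chromosome 5 that led the joint ranking followed, at 1212.64. A region on chromosome 8 had 1172.3 for FOXK1 and 72.3 for ASXL1, and chr5:126297357-126297968 had 1005.08 against 50.4, near the lowest score of the ASXL1 list. In all, 28 regions had a FOXK1 score of at least 500, a limit set after the values were seen. Their median ASXL1 score was 119, against 93.1 in all 2774 regions, and 13 of the 28 (46.4%) were below 100, against 1516 of the 2774 (54.7%). Among the 351 regions of all 3 lists with such a FOXK1 score the median ASXL1 score was 551, and 19 were below 100.

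The highest ASXL1 scores belonged to a different kind of region. A set of 5 regions had the ASXL1 score of 3100, a value that many peaks of that list share, and each had a wide ASXL1 peak. The widest was chrX:71486102-71492162, with an ASXL1 peak of 6061 bp and a FOXK1 peak of 386 bp and score 65.5. At chr10:79800464-79804819 an ASXL1 peak of 4356 bp held a FOXK1 peak of 588 bp (score 66.1), and at chr6:34382391-34385647 one of 3257 bp held a FOXK1 peak of 595 bp (score 79.7). At chr21:28208722-28211054 the widths were 2333 and 344 bp and the FOXK1 score was 54.1. The one on chromosome 8 had an ASXL1 peak of 1708 bp and 2 FOXK1 peaks with a highest score of 174.

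In 4 of these 5 regions a FOXK1 peak with a score below the median of the 2774 regions thus lay within an ASXL1 peak several times its width. An ASXL1 peak of at least 1500 bp, again a limit set after the values were seen, was present in 33 of the 2774 regions (1.19%) and in 412 of the 6231 regions of all 3 lists (6.61%). In the 33 regions the ASXL1 score had a median of 1150 and the FOXK1 score one of 78.1, and 23 of the 33 FOXK1 scores (69.7%, 52.7 to 82.6) were below 100. Over all 2774 regions the FOXK1 median was 85.0 and 1663 scores (59.9%, 58.1 to 61.8) were below 100, and the intervals of the 2 shares overlapped. The 412 regions of all 3 lists had a FOXK1 median of 118, with 181 below 100. The FOXK1 peak was 598 bp wide at the median in these 33 regions, against 470 bp in all 2774, and 1113 bp in the 412, against 689 bp in all regions of the 3 lists. The distance between the centres was 0.427 of the half-width of the ASXL1 peak at the median in the 33 and 0.346 in the 412.

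To see how O-GlcNAc varied with the strength of the other targets, all regions with ASXL1 were sorted into 8 classes of ASXL1 score. Among regions that also held FOXK1, those without O-GlcNAc made up 63.0% (interval 59.4 to 66.5) at ASXL1 scores from 50 to below 60. The share was 43.3% (40.6 to 46.0) from 100 to below 150 and 15.6% (13.7 to 17.7) from 250 to below 500. At 1000 or more it was 2.10% (1.47 to 3.002), or 29 of 1380 regions. Among regions with both proteins, the share without O-GlcNAc was therefore highest at low ASXL1 scores. These shares describe each class and not the make-up of the 2774 regions. Their median ASXL1 score of 93.1 was above the 67.6 of regions with ASXL1 alone.

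Regions with ASXL1 and no FOXK1 lacked O-GlcNAc more often, in 83.7% of 83370 cases. The difference was present in each class of ASXL1 score, with intervals that did not overlap. From 50 to below 60 the share without O-GlcNAc was 95.2% (94.97 to 95.52) without FOXK1, against 63.0% with it. From 100 to below 150 it was 84.3% (83.5 to 85.0) against 43.3%, and at 1000 or more 10.7% (9.59 to 12.02) against 2.10%. Regions with FOXK1 are wider, so the same count was also made in windows of 400 bp on the ASXL1 peak centre. These windows make the span alike, but not the peak widths or other traits of the places. From 100 to below 150 the windows with FOXK1 lacked O-GlcNAc in 44.9% of cases (42.2 to 47.6) and those without FOXK1 in 84.1% (83.3 to 84.9). At 1000 or more the windows lacked it in 2.64% (1.90 to 3.67) and 16.7% (15.3 to 18.2) of cases in the same order. The cause of the difference was not tested.

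**Figure D2:**
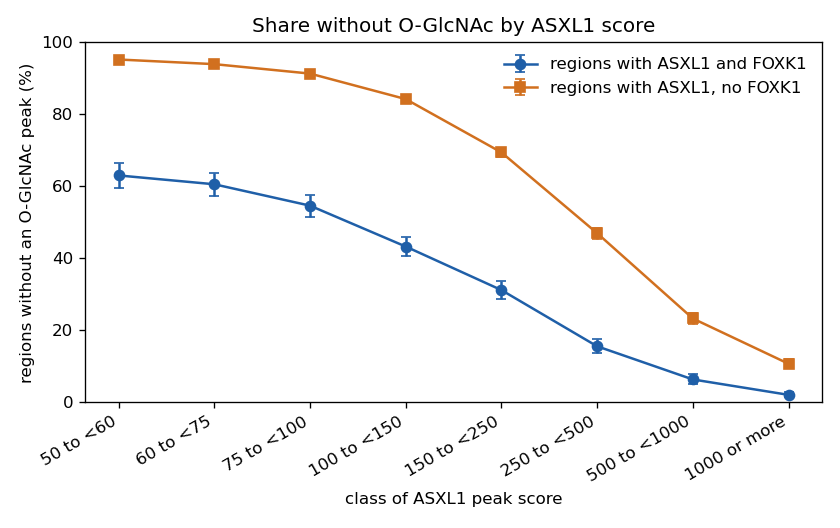
The share of regions without an O-GlcNAc peak (y axis, %) is plotted for 8 classes of ASXL1 score (x axis), with circles for regions that also held FOXK1 and squares for those that did not. Bars are 95% Wilson intervals. Both lines fall with the ASXL1 score, from 63.0% to 2.10% with FOXK1 and from 95.2% to 10.7% without it.

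Sorted by FOXK1 score instead, the 9005 regions with both proteins lacked O-GlcNAc in 45.2% of cases (42.5 to 48.0) at FOXK1 scores from 50 to below 60. From 150 to below 250 the share was 24.3% (22.3 to 26.5), and from 500 to below 1000 it was 7.35% (4.95 to 10.8). At 1000 or more it was 7.58% (3.28 to 16.5), with 66 regions. Regions with FOXK1 and no ASXL1 lacked O-GlcNAc in 84.5% of 12281 cases. Their share was 89.96% in the lowest class, 66.3% (60.2 to 71.9) from 250 to below 500 and 86.9% (76.2 to 93.2) from 500 to below 1000, where there were 61 regions. The share thus fell up to a FOXK1 score of 500 in both kinds of region, and above it regions with ASXL1 stayed low while those without ASXL1 were higher again.

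FOXK1 scores also differed at comparable ASXL1 scores. In the class from 75 to below 100 for ASXL1, the median FOXK1 score was 82.6 (interval 78.2 to 86.8) in 540 regions without O-GlcNAc and 102 (94.7 to 110) in 448 regions with it. From 250 to below 500 the medians were 98.9 (90.6 to 113) and 139 (132 to 152). The median was lower without O-GlcNAc in all 8 classes, and the intervals were apart in the 6 classes below 500. In the classes from 500 to below 1000 and from 1000 on, where 78 and 29 regions lacked O-GlcNAc, the intervals overlapped. Median widths also differed, at 536 bp without and 609 bp with O-GlcNAc from 75 to below 100. The regions without O-GlcNAc were the narrower ones in the 7 classes below 1000 and the wider ones at 1000 or more (1777 and 1266 bp). The part of width in the FOXK1 scores was not tested.

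**Figure D3:**
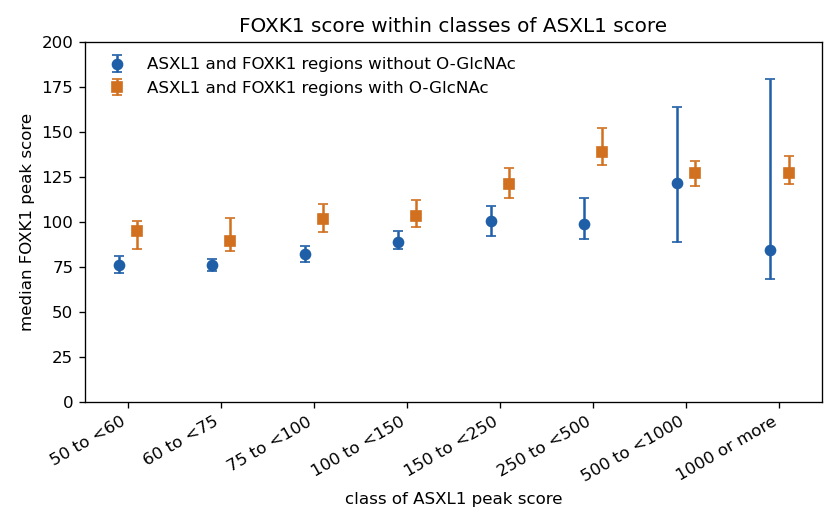
The median FOXK1 score (y axis) is plotted for 8 classes of ASXL1 score (x axis) in ASXL1 and FOXK1 regions without O-GlcNAc (circles) and with it (squares). Bars are 95% order-statistic intervals of the median. The circles lie below the squares, with intervals apart below an ASXL1 score of 500 and overlapping from there on.

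Because ASXL1 and FOXK1 peaks had to overlap for a region to be counted, their closeness was set by the choice of regions and is given as a description. The centres of the highest-scoring peaks were 79.0 bp apart at the median (interval 75.5 to 82.5) in regions without it and 85.5 bp (83.0 to 88.5) in regions of all 3 lists. They lay within 100 bp of each other in 60.4% (58.5 to 62.2) and 56.4% (55.2 to 57.7) of regions in the same order. In 40.5% (38.7 to 42.3) of the regions without O-GlcNAc the ASXL1 peak lay wholly inside the FOXK1 peak, and in 9.34% (8.31 to 10.5) the FOXK1 peak lay inside the ASXL1 peak. The regions of all 3 lists had 34.5% and 17.3% (16.3 to 18.2). An ASXL1 peak wider than its FOXK1 partner was found in 25.1% of the regions without O-GlcNAc and in 37.8% of those with it. The centres are midpoints of the listed peaks, and the median distances are shorter than the chromatin fragments (150 to 400 bp on average). Distances of this size may be below what the peaks can resolve, which was not tested.

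The distance to O-GlcNAc was measured next. The gap from the region's edge to the nearest O-GlcNAc peak had a median of 4888 bp (interval 4539 to 5246), quartiles of 1281 and 12832 bp, and a range from 2 to 331186 bp. Counting O-GlcNAc peaks with a score of at least 100 alone, the median gap of the same regions was 28965 bp, so the shorter distances rest on O-GlcNAc peaks below that score. An O-GlcNAc peak lay within 1000 bp of 604 regions (21.8%, interval 20.3 to 23.3) and within 10000 bp of 1896 (68.3%). Regions with ASXL1 alone had one within 1000 bp in 12.7% of cases (12.5 to 13.0) and regions with FOXK1 alone in 11.1% (10.6 to 11.8), with median gaps of 7316 and 8584 bp. All 3 groups lack O-GlcNAc by definition, and the regions with both proteins were the nearest to it.

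The same count was made within classes of ASXL1 score. From 75 to below 100, 22.04% of the regions with both proteins (18.7 to 25.7) and 13.5% of those with ASXL1 alone (12.9 to 14.1) had an O-GlcNAc peak within 1000 bp. From 500 to below 1000 the shares were 35.9% (26.1 to 47.0) and 16.3% (13.9 to 19.1), the widest difference of the 8 classes. At 1000 or more they were 31.03% (17.3 to 49.2) and 13.4% (9.86 to 18.04), where the intervals overlapped, unlike in the 7 lower classes. The nearest O-GlcNAc peaks of regions that had one within 1000 bp had a median score of 72.1 (interval 70.6 to 75.7), against 69.3 (68.2 to 70.7) for the nearest O-GlcNAc peak of all 2774 regions, with intervals that overlapped, and 67.1 (66.8 to 67.2) for all O-GlcNAc peaks. The highest O-GlcNAc peak per region of all 3 lists had a median of 165, which is not the same measure as the score of a nearest peak.

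**Figure D4:**
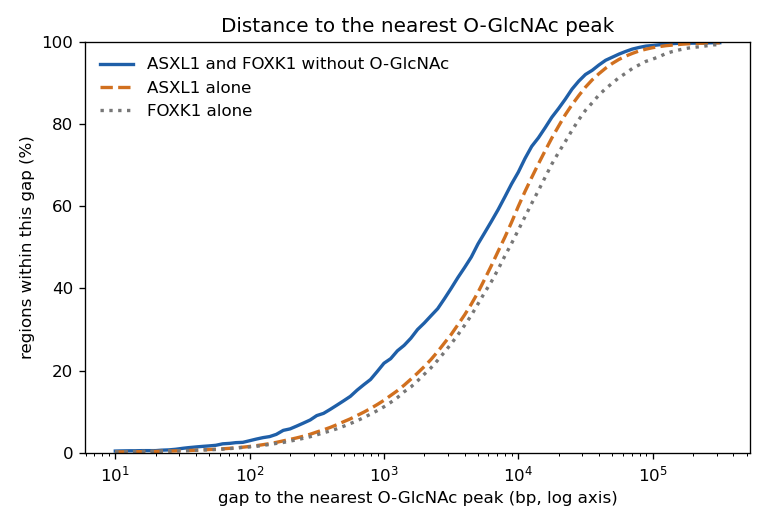
The cumulative share of regions (y axis, %) is plotted against the gap to the nearest O-GlcNAc peak (x axis, bp, log) for ASXL1 and FOXK1 regions without O-GlcNAc (solid), ASXL1 alone (dashed) and FOXK1 alone (dotted). The solid line runs above both others, with 21.8%, 12.7% and 11.1% of regions within 1000 bp.

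Scores were also compared by the distance from O-GlcNAc. The 350 regions within 500 bp of an O-GlcNAc peak had a median ASXL1 score of 94.6 (88.8 to 107) and a median FOXK1 score of 89.3 (81.4 to 95.7). The 100 regions more than 50000 bp away had medians of 95.2 (84.2 to 113) and 75.005 (67.4 to 90.9), with intervals that overlapped those near O-GlcNAc. Between these ends the ASXL1 median was 104 (96.4 to 110) in the 528 regions from 500 to 2000 bp away, 90.4 (86.7 to 95.5) in the 1018 from 2000 to 10000 bp away and 87.5 (83.3 to 93.5) in the 778 from 10000 to 50000 bp away. The interval of the first of these 3 was apart from the other two. Among the 595 regions with both scores of at least 100, the most remote was chrX:155110620-155111140, with scores of 151 for ASXL1 and 152 for FOXK1 and 181147 bp to the nearest O-GlcNAc peak. The next were chr10:47395540-47396445 (143109 bp), chr5:69880953-69882364 (132640 bp), chr7:56515779-56516347 (127949 bp) and chr4:99063983-99064949 (117255 bp). Of these 5, the places on chromosomes 5 and 4 had the highest ASXL1 scores, 733.14 and 723.57, with FOXK1 scores of 134 and 237.

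The edge of the definition was narrow. Just inside it, chr6:92009116-92009818 (142.42 for ASXL1 and 287.56 for FOXK1) had an O-GlcNAc peak of score 53.7 only 2 bp away, chr17:35475659-35476073 (109.29 and 51.8) had one 3 bp away, and chr2:189488998-189489404 (90.1 and 131) had one 4 bp away. The next, chr5:122467316-122467792 and a region on chromosome 8, were 6 bp from one. In all, 10 regions had a gap of up to 10 bp. Just outside it, chr1:24372564-24373397 (285.21 and 96.0) had an O-GlcNAc peak of score 50.01, and chr2:100713756-100714322 (51.7 and 80.6) one of 50.02. Then came chr6:152779245-152779892 and chr2:44890636-44891149, with O-GlcNAc scores of 50.11, and chr10:123591332-123591828 with 50.14. Among the regions of all 3 lists, 495 (7.94%) had an O-GlcNAc score below 60.

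Other O-GlcNAc peaks were about as frequent around these regions as around regions of all 3 lists, whereas other ASXL1 peaks were fewer and other FOXK1 peaks more frequent. Within 50 kb on either side of the centre, the regions without O-GlcNAc had a median of 5 other O-GlcNAc peaks and a mean of 5.50 ± 3.85 (SD over 2774 regions), and the regions of all 3 lists had the same median and a mean of 5.37 ± 3.78. Other ASXL1 peaks averaged 7.03 ± 6.01 and 8.40 ± 6.84 in the same order, and other FOXK1 peaks 2.36 ± 2.58 and 2.07 ± 2.47. No other ASXL1 peak was present in 4.87% (4.13 to 5.73) and 2.94% (2.55 to 3.39) of regions, and no other FOXK1 peak in 23.3% (21.7 to 24.9) and 27.7% (26.6 to 28.8). No O-GlcNAc peak at all lay within this distance of 3.71% of the regions (3.07 to 4.48). The share was 5.22% (5.06 to 5.39) for ASXL1 alone and 10.02% (9.46 to 10.6) for FOXK1 alone. Regions of all 3 lists hold O-GlcNAc by definition, and 3.11% of them (2.71 to 3.57) had no other O-GlcNAc peak within it.

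The nearest region of any kind was one of ASXL1 alone in 36.05% of cases and one of O-GlcNAc alone in 29.7%, where such regions made up 43.7% and 34.5% of all merged regions. In 4.22% (3.53 to 5.03) it was another ASXL1 and FOXK1 region without O-GlcNAc, a kind that made up 1.74% of all merged regions. In 8.47% (7.49 to 9.57) it was a region of all 3 lists, which made up 3.90%. The regions of all 3 lists in turn had a region of ASXL1 and FOXK1 without O-GlcNAc as the nearest in 3.47% (3.04 to 3.95) of cases, so a surplus over the share of all regions was not limited to neighbours of the same kind. Chains with gaps of at most 10000 bp joined 328 of the 2774 regions (11.8%) into 156 groups, the largest of 5 regions. The regions lay in 1374 windows of 1 Mb, of which 681 held 1 region and 90 held 5 or more.

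A few windows held many. Chromosome 7 from 116 to 117 Mb had 13 regions without O-GlcNAc beside 8 regions of all 3 lists, a share without O-GlcNAc of 61.9% (40.9 to 79.2), where the share over all chromosomes was 30.8%. Windows with 12 were chromosome 5 from 124 to 125 Mb, beside 24 regions of all 3 lists (33.3%, 20.2 to 49.7), and chromosome 7 from 69 to 70 Mb, beside 8 (60%, 38.7 to 78.1). Chromosome 9 from 128 to 129 Mb had 10 beside 3 (76.9%, 49.7 to 91.8), and chromosome 1 from 64 to 65 Mb had 10 beside 6 (62.5%, 38.6 to 81.5). On chromosome 6 from 26 to 27 Mb, 10 regions stood beside 35 (22.2%, 12.5 to 36.3). These are the windows with 10 or more such regions, picked for that count and given as a description.

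The share of ASXL1 and FOXK1 regions that lacked O-GlcNAc varied between chromosomes. It was lowest on chromosome 19, where 31 of 314 regions lacked it (9.87%, interval 7.04 to 13.7), followed by chromosomes 16 (20.8%), 22 (22.8%), 20 (22.8%) and 17 (24.4%). It was highest on chromosomes 13 (39.1%, 32.8 to 45.7), 4 (37.8%) and 18 (37.4%). The chromosomes with low shares had high ASXL1 scores. The median ASXL1 score of the 314 regions on chromosome 19 was 461, and that of the regions on chromosome 13 was 143. Across the 23 chromosomes the share had a Spearman rho of −0.825 with the median ASXL1 score and of −0.110 with the median FOXK1 score, each computed on the same regions as the share. It had a rho of 0.668 with the percentage of all merged regions of a chromosome that held O-GlcNAc. Chromosomes where that percentage was larger thus tended to have the higher shares without it.

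The 8 ASXL1 score classes of each chromosome were then weighted by their frequency among all ASXL1 and FOXK1 regions. This narrowed the range to between 17.8% on chromosome 19 and 36.2% on X. Some classes then held few regions, 5 in the smallest class of chromosome 21 and 9 in those of chromosomes 19 and 22. With 3 broader classes, chromosome 19 had 16 of 37 regions without O-GlcNAc at ASXL1 scores below 100 (43.2%, 28.7 to 59.1), against 59.2% (57.3 to 61.1) on all other chromosomes. From 100 to below 250 it had 10 of 64 (15.6%, 8.71 to 26.4) against 37.9% (36.01 to 39.8), and at 250 or more 5 of 213 (2.35%, 1.01 to 5.38) against 8.24% (7.39 to 9.17). The intervals overlapped in the lowest class and not in the other 2. The highest class spans a wide range of ASXL1 scores, so scores within it were not alike, and chromosome 19 was singled out for having the lowest share. The part of the ASXL1 score in the low share was not tested.

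**Figure D5:**
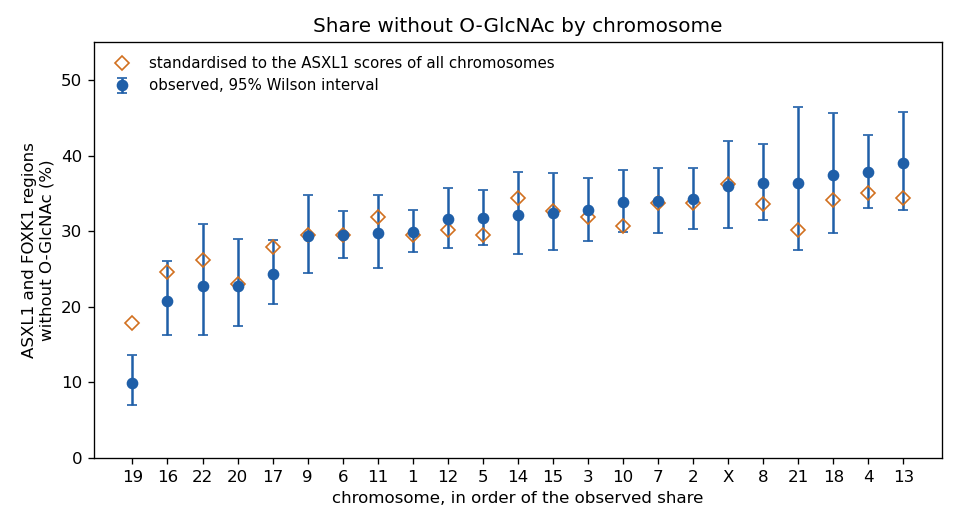
The share of ASXL1 and FOXK1 regions without O-GlcNAc (y axis, %) is plotted for 23 chromosomes in order of that share. Circles with bars are observed shares with 95% Wilson intervals, from 9.87% on chromosome 19 to 39.1% on chromosome 13, and diamonds are shares standardised to the ASXL1 scores of all chromosomes, from 17.8% to 36.2%.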

How the data were processed

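The files used were 3 peak lists, 1 per ChIP library, each with a chromosome, start, end, name and score per peak. The deposited score is the one the authors' peak caller gave each peak, not pooled over libraries, with the matching input as control per the labels. Per the submitters' processing notes the tools were Bowtie2 2.0.0 and MACS 1.4 and the build hg19. Caller settings, read filters and depth are not given in the sources used here, and the input libraries were not analysed here. PCR reads without molecular identifiers are not independent molecules, so the intervals cover counting error only.

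Peaks on chromosomes 1 to 22 and X were merged with pandas 2.3.3, and each region took its highest-scoring peak per list. Positions count from 1. Shares have 95% Wilson intervals (scipy 1.17.1) and medians order-statistic intervals. Merging, classes and gaps were tested on simulated intervals with known answers. No p-value was computed. The regions, lists and rules were chosen with earlier results of these data known. Named regions were the 10 ranked highest by both scores together (lowest rank sum), the 5 highest for each protein, the 5 farthest from O-GlcNAc with both scores of at least 100, and the 5 on either side of the definition. Alternatives were stricter scores, the 10000 highest-scoring peaks of each list, a 50% overlap, no O-GlcNAc within 1000 bp, lists without the widest 1% of peaks and, added after the data had been seen, 400 bp windows. Gene starts, motifs and sequences were not analysed here, because the gene table and promoter sequences used here are of another build and coordinates were not converted.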

Additional observations from a re-analysis of the deposited data

How the results depend on the processing

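No paired analysis was possible because there were no replicate libraries. The alternatives on gene starts and on forkhead motifs were not run. ASXL1 and FOXK1 scores of at least 100 left 596 regions, 15.8% of those with both proteins, with a median gap to O-GlcNAc of 4030 bp. O-GlcNAc scores of at least 100 raised the number to 4627 (51.4%), and the gap of the 2774 regions to 28965 bp, as a shorter O-GlcNAc list must. The 10000 highest-scoring peaks of each list gave 439 regions (19.8%). The share was 33.5% without the widest 1% of peaks, 24.1% with no O-GlcNAc peak within 1000 bp and 33.7% in 400 bp windows on the ASXL1 peak centre, and in these settings and with a 50% overlap the number of regions stayed within 1.5 times the 2774 reported. Beyond the shorter lists the cause of these changes was not tested. Of 6 alternatives each, the median centre distance kept to its interval in 4 (range 74.0 to 95.5 bp), the median FOXK1 score in 3 (84.6 to 158) and the median ASXL1 score in 2 (90.6 to 640). The unknown depth limits every share, since a deeper O-GlcNAc library could list more peaks.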

Other observations

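On the Y chromosome and unplaced contigs, which the regions above leave out, the 3 lists merged into 407 regions. ASXL1 and FOXK1 peaks without O-GlcNAc met in 1 of them, and 16 held all 3 lists.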
